A study of Mus musculus with 8 samples.

Results

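The genes described are 10 transcription factors that are known to direct effector differentiation and exhaustion of CD8+ T cells, out of 48321 gene symbols listed for each library. They were taken by symbol: *Tbx21*, *Eomes*, *Prdm1*, *Id2*, *Irf4*, *Irf8*, *Batf*, *Zeb2*, *Tox* and *Bcl6*. RNA was sequenced from peripheral CD8+ T cells of the spleen of C57BL/6 mice. The series names the mice as *Satb1* F/F; *E8I-cre*, which is floxed *Satb1* alleles with a Cre transgene under a *Cd8* enhancer used in mature CD8+ T cells. Labels give the genotype as WT or KO and the time as day 0 or day 5 of in vitro culture, with 2 libraries in each of the 4 groups. The alleles carried by the WT mice, the age of the mice, the culture condition and whether replicates came from separate mice are not given in the sources used here, so p-values measure the spread between these libraries, which may be technical.

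Antigen stimulation moves a naive CD8+ T cell from a quiescent, lymph node homing state to a proliferating effector state, and this program is set by competing transcription factors. T-bet (*Tbx21*) and eomesodermin (*Eomes*) are T-box factors that activate cytotoxic genes, Blimp-1 (*Prdm1*) and *Bcl6* are repressors that oppose each other, and *Id2* blocks E protein binding to DNA. *Irf4*, *Irf8* and *Batf* act together on composite sites downstream of the T-cell receptor, *Zeb2* supports terminal effector cells, and *Tox* is known for sustaining exhausted cells under chronic stimulation.

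Gene counts totalled 4170126 to 11117971 per library, with replicate 1 of KO at day 0 the deepest. The 7 CD8 T cell markers summed to between 8706 and 13080 CPM (counts scaled to a common library size), against 1.36 to 6.26 CPM for 3 CD4 T cell markers and 1.36 to 5.11 CPM for 5 NK cell markers. *Satb1* itself had 97.8 and 91.6 CPM in WT and 144 and 125 CPM in KO at day 0, and 96.5 and 116 CPM in WT and 56.5 and 62.3 CPM in KO at day 5. Its gene-level count therefore goes against the KO label at day 0 (log2 fold change 0.51, edgeR FDR 0.125) and was lower in KO at day 5 (-0.84, edgeR FDR 0.0162). This count covers the whole gene, so it does not show whether the floxed segment was removed. Directions between genotypes below rest on the label, and KO stands for libraries that carry it. FDR is the Benjamini-Hochberg adjusted p of the edgeR quasi-likelihood test over 12597 genes, and a gene is called at FDR under 0.05. Exons of the other strand covered at most 3.42% of a member's exon length (*Tox*), and the strand setting of the counting is not given in the sources used here, so reads from such stretches cannot be told apart. In bulk RNA, fewer cells of a type and less RNA per cell cannot be told apart.

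The promoters of 3 members with large changes are shown, with both directions included: *Irf8* and *Eomes* rose in culture and *Bcl6* fell. *Irf4* and *Tbx21* rose more than *Eomes* in WT (log2 fold change 4.42 and 3.22 against 2.07) and are not shown. Each line is the 250 bases before the RefSeq start site (GRCm38.p6), 5′ to 3′ on the strand of the gene, and the capitals mark matches to motifs of factors active in T cells.
Irf8, chr8:120736108-120736357, plus strand: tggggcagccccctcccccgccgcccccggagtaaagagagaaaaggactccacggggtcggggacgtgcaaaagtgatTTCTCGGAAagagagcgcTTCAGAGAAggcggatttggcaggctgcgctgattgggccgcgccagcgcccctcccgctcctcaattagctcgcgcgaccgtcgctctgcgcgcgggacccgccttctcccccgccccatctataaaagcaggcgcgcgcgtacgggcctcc
Eomes, chr9:118477939-118478188, plus strand: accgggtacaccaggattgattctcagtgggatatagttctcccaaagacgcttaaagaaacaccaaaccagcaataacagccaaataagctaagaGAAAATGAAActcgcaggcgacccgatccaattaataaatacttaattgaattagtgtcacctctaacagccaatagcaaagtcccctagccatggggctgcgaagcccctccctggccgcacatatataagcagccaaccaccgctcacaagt
Bcl6, chr16:23988853-23989102, minus strand: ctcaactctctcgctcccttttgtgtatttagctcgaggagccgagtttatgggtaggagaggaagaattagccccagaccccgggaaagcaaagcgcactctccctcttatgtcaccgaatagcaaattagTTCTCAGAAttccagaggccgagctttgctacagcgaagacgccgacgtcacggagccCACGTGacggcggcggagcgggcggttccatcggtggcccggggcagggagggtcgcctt

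In the *Irf8* window the capitals are 2 matches to TTCNNNGAA, the STAT-binding GAS motif, starting 171 and 153 bases before the start site. The *Eomes* window held 1 match to the core of the interferon-stimulated response element bound by IRF factors, which is GAAA repeated after a gap of 2 bases, 154 bases before the start site. The *Bcl6* window held a GAS match 118 bases and an E-box (CACGTG) 60 bases before the start site. On both strands, TTCNNNGAA was found in 7.02% of 32841 promoter windows of the same length, the GAAA repeat in 2.98% and the E-boxes CACGTG or CAGGTG in 22.2%. AP-1 (TGACTCA or TGAGTCA, 4.46% of windows) and T-box (AGGTGT, 11.8%) motifs had no match in these 3 windows. SATB1 is known to bind AT-rich DNA, and the share of A and T was 32.8% for *Irf8*, 53.6% for *Eomes* and 41.6% for *Bcl6*, beside a median of 47.6% over all windows. The matches in these windows do not overlap each other. A second *Bcl6* start site (window chr16:23981284-23981533) had 3 GAS matches, 168, 122 and 88 bases before it, and a second *Irf8* start site (window chr8:120738389-120738638) had no GAS match and 1 E-box 205 bases before it. RefSeq entries matched 9 of the 10 members, with 14 windows in all, and *Tox* was not among them. The windows of *Irf4*, *Id2* and *Batf*, which also rose in culture, had no match to any of these motifs. Those of *Tbx21* and *Prdm1* had 1 E-box each, and some *Zeb2* windows held GAS or AP-1 matches. Whether the motifs go with the changes in culture was not tested.

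Culture moved nearly all of these genes. From day 0 to day 5 in WT, 8 of the 9 members that passed the filter on low counts were called, with 6 genes up and 2 down. All 9 were called in KO, with 7 up and 2 down. *Zeb2* did not pass the filter, which asks for 1.82 CPM (unscaled) in 2 libraries. *Tbx21* and *Prdm1* were under that level in all 4 day 0 libraries and passed only with day 5, so an increase in them was favoured by the filter. The other 7 were called in both genotypes, 5 up and 2 down. Culture changed much of the transcriptome, with 48.3% of tested genes called in WT (24.7% higher and 23.6% lower) and 50.2% in KO (26.2% higher and 24% lower). The median log2 fold change of the 9 tested members, these 2 included, was 1.23 in WT and 1.79 in KO, beside -0.04 and -0.05 over all tested genes. For all 9 the libraries of the 2 days did not overlap in either genotype, a separation that 73.7% of tested genes showed in WT and 77.9% in KO. *Irf4* and *Irf8* had the largest increases and *Bcl6* the largest decrease among the members in each genotype, as the plot of changes from day 0 to day 5 shows.

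**Figure D1:**
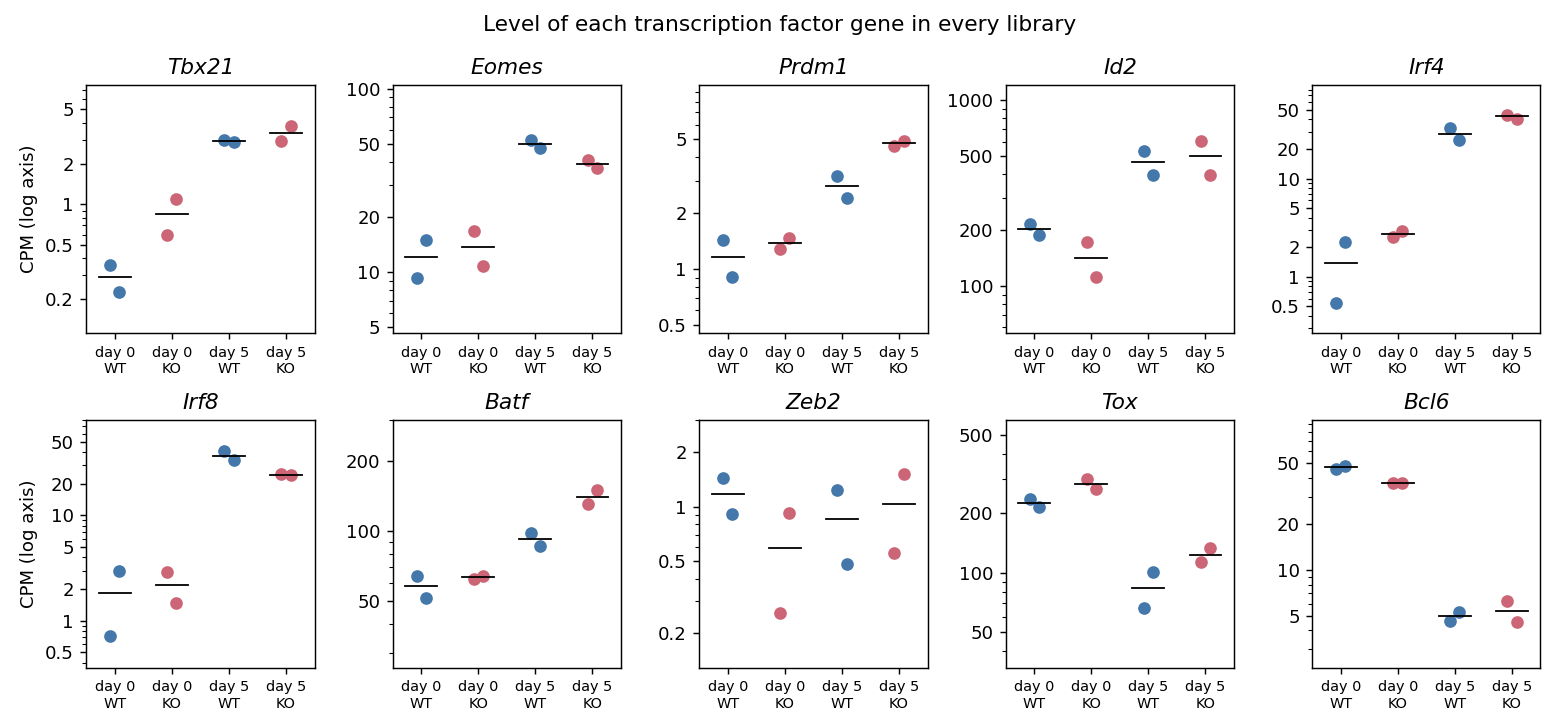
CPM on the TMM-scaled library size (log axis) for each of the 10 genes in the 2 libraries of each group; points are libraries and lines are group means. *Tox* and *Bcl6* sit lower at day 5 than at day 0 in both genotypes, *Zeb2* stays near 1 CPM with overlapping groups, and the other genes sit higher at day 5.

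*Irf4*, a factor induced by T-cell receptor signalling in proportion to its strength, lies on chromosome 13 (30749226 to 30766976, GRCm38). It had 0.537 and 2.26 CPM in WT and 2.57 and 2.94 CPM in KO at day 0, and 32.3 and 24.6 CPM in WT and 44.7 and 40.7 CPM in KO at day 5. All day 5 libraries were above all day 0 libraries, and at day 5 both KO libraries were above both WT libraries. The increase was 21.4-fold in WT (log2 fold change 4.42, SE 0.39, edgeR FDR 1.68e-06) and 15.6-fold in KO (3.97, SE 0.32, edgeR FDR 6.51e-07). The WT value depends on which day 0 library is kept, since these held 3 and 10 counts: it was 3.66 without WT replicate 1 at day 0 and 5.69 without WT replicate 2, and the call held in both.

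*Irf8*, a related factor known both in effector CD8+ T cells and in B and myeloid cells, lies on chromosome 8 (120736358 to 120756694). Its level was 0.715 and 2.94 CPM in WT and 2.92 and 1.47 CPM in KO at day 0, then 40.6 and 33.3 CPM in WT and 24.5 and 24.4 CPM in KO at day 5. Day 0 and day 5 did not overlap, and at day 5 the order of the genotypes was opposite to that of *Irf4*, with both KO libraries below both WT libraries. *Irf8* rose 21.2-fold in WT (log2 fold change 4.41, SE 0.42, edgeR FDR 3.03e-06) and 10.3-fold in KO (3.36, SE 0.37, edgeR FDR 1.09e-05). Without WT replicate 1 or 2 at day 0 the WT value was 3.65 or 5.66, and without KO replicate 1 at day 0 the KO value was 4.05.

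Because *Irf8* is also a gene of B and myeloid cells, their markers are given beside it. Summed B cell markers (7 genes) were 122 to 169 CPM at day 0 and 67.4 to 84.4 CPM at day 5, nearly all from *Cd79b* (66.7 to 164 CPM), while *Ms4a1* reached at most 0.367 CPM. Summed dendritic and myeloid cell markers (8 genes) were 19.9 to 31.9 CPM at day 0 and 38.3 to 77.4 CPM at day 5. *Cd68* carried that rise, from 2.23 to 5.14 CPM at day 0 to 30.7 to 68.4 CPM at day 5, while *Csf1r* was 6.8 to 11.7 CPM at day 0 and 3.53 to 4.73 CPM at day 5, and *Itgax* and *Clec9a* had no count at day 5. The part of other cells in the *Irf8* level was not tested beyond these values.

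*Batf*, an AP-1 family factor that pairs with JUN proteins and binds with IRF4 or IRF8, was already abundant before culture. The gene lies on chromosome 12 (85686669 to 85709087). It had 64.4 and 51.8 CPM in WT and 62.2 and 64.2 CPM in KO at day 0, and 98.1 and 85.8 CPM in WT and 130 and 150 CPM in KO at day 5. The genotypes overlapped at day 0, whereas at day 5 both KO libraries were above both WT libraries. *Batf* rose 1.58-fold in WT (log2 fold change 0.66, SE 0.16, edgeR FDR 0.00409) and 2.21-fold in KO (1.15, SE 0.15, edgeR FDR 5.47e-05). Correcting for the GC content and length of genes lowered these to 0.23 (edgeR FDR 0.241) and 0.54 (edgeR FDR 0.00991), and the WT call was also lost without WT replicate 2 at day 0 (0.52, edgeR FDR 0.0549).

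**Figure D2:**
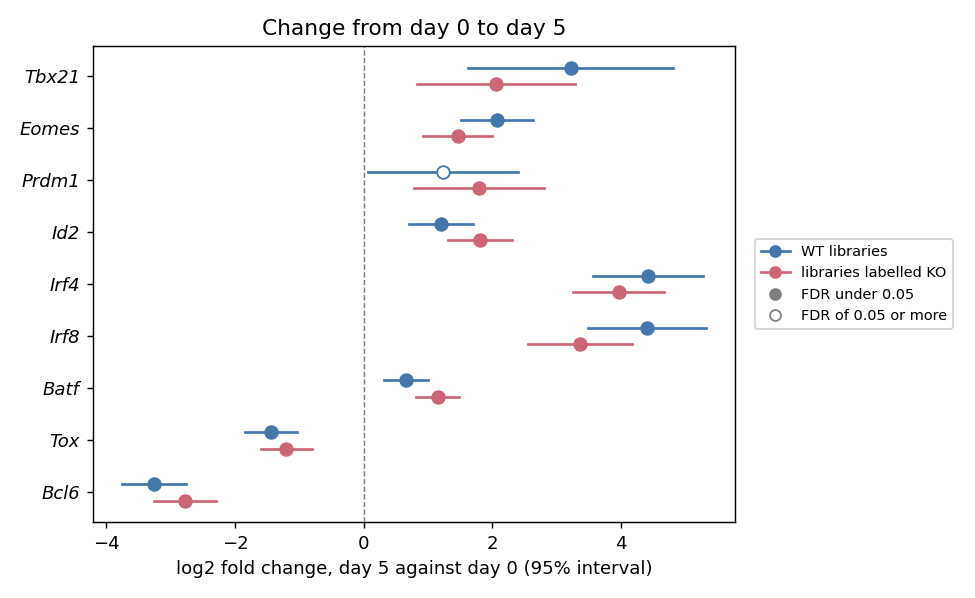
Log2 fold change of day 5 against day 0 with its 95% interval for the 9 tested genes, in WT libraries and in libraries labelled KO; filled points have FDR under 0.05. All intervals for *Irf4* and *Irf8* lie above 2.5, those of *Tox* and *Bcl6* lie below 0, and the open point is *Prdm1* in WT; the WT value of *Tbx21* rests on 2 and 1 counts at day 0.

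*Eomes*, the T-box factor associated with memory cells and with cytotoxic genes, was the more abundant of the T-box pair throughout and lies on chromosome 9 (118478212 to 118486132). Its level at day 0 was 9.3 and 14.9 CPM in WT and 16.8 and 10.8 CPM in KO. At day 5 it was 52.7 and 47.7 CPM in WT and 40.8 and 37.3 CPM in KO, so every day 5 library was above every day 0 library and the KO libraries were below the WT libraries. *Eomes* rose 4.2-fold in WT (log2 fold change 2.07, SE 0.26, edgeR FDR 3.27e-05) and 2.76-fold in KO (1.46, SE 0.25, edgeR FDR 0.000317).

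*Tbx21*, which encodes the type 1 effector regulator T-bet on chromosome 11 (97098071 to 97115331), remained scarce. WT libraries held 2 and 1 counts at day 0 and 17 and 12 counts at day 5, which is 0.358 and 0.226 CPM against 3 and 2.89 CPM. Libraries labelled KO held 7 and 6 counts at day 0 and 16 and 20 counts at day 5, or 0.6 and 1.1 CPM against 2.94 and 3.79 CPM. The days did not overlap in either genotype. In WT the ratio of the summed counts per library size was 9.86, with a 95% exact counting interval of 3.06 to 50.6, and the increase was called (edgeR FDR 0.00309). In KO the log2 fold change was 2.06 (SE 0.56, edgeR FDR 0.00896), and this call was lost with DESeq2 (2.08, FDR 0.0603), without KO replicate 1 at day 0 (1.60, edgeR FDR 0.0917) and without KO replicate 2 at day 5 (1.86, edgeR FDR 0.0888).

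*Prdm1*, which encodes Blimp-1 on chromosome 10 (44437177 to 44528501), was low in all 8 libraries. It had 8 and 4 counts in WT and 15 and 8 counts in KO at day 0 (1.43, 0.904, 1.29 and 1.47 CPM), and 18 and 10 counts in WT and 25 and 26 counts in KO at day 5 (3.17, 2.41, 4.6 and 4.92 CPM). The days did not overlap, and the KO libraries were the highest at day 5. *Prdm1* rose 3.46-fold in KO (log2 fold change 1.79, SE 0.47, edgeR FDR 0.00673). In WT its log2 fold change of 1.23 (SE 0.54, 95% interval 0.06 to 2.40) did not pass the threshold (edgeR FDR 0.0771).

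*Bcl6*, the repressor that opposes Blimp-1 and is known in memory precursors and follicular helper cells, lies on chromosome 16 (23965052 to 23988852) and moved downward. It had 46 and 48.4 CPM in WT and 37.3 and 37.3 CPM in KO at day 0, and 4.59 and 5.3 CPM in WT and 6.25 and 4.54 CPM in KO at day 5. The 2 days were far apart, the KO libraries were below WT at day 0, and the genotypes overlapped at day 5. *Bcl6* fell 9.57-fold in WT (log2 fold change -3.26, SE 0.23, edgeR FDR 1.97e-07) and 6.87-fold in KO (-2.78, SE 0.22, edgeR FDR 5.44e-07). Only 1.3% of tested genes had a smaller log2 fold change in WT, and 2.02% in KO.

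Per exon length, the ratio of *Bcl6* to *Prdm1* was 26.8 and 44.5 in WT and 24.1 and 21.1 in KO at day 0. At day 5 it was 1.2 and 1.83 in WT and 1.13 and 0.769 in KO, so that the 2 transcripts were at about the same level. The ratio moved more through *Bcl6* than through *Prdm1*, whose own level stayed below 5 CPM.

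*Tox*, an HMG-box factor gene on chromosome 4 (6686353 to 6991557), fell in culture. Its level was 236 and 216 CPM in WT and 298 and 265 CPM in KO at day 0, and 66.1 and 101 CPM in WT and 113 and 133 CPM in KO at day 5. The days did not overlap, and at each day both libraries labelled KO were above both WT libraries. *Tox* fell 2.71-fold in WT (log2 fold change -1.44, SE 0.18, edgeR FDR 3.62e-05) and 2.3-fold in KO (-1.20, SE 0.18, edgeR FDR 0.000126).

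*Id2*, the inhibitor of E proteins that favours effector over memory fate, lies on chromosome 12 (25093799 to 25097140) and was the most abundant member per exon length in all 4 groups. It had 217 and 188 CPM in WT and 172 and 112 CPM in KO at day 0, and 535 and 397 CPM in WT and 606 and 398 CPM in KO at day 5. Both KO libraries were below both WT libraries at day 0, and the genotypes overlapped at day 5. *Id2* rose 2.3-fold in WT (log2 fold change 1.20, SE 0.23, edgeR FDR 0.00089) and 3.51-fold in KO (1.81, SE 0.23, edgeR FDR 3.53e-05).

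*Id3*, the relative of *Id2* that marks naive and memory cells, moved the other way. It fell by 0.86 on the log2 scale in WT (edgeR FDR 0.000217) and by 1.66 in KO (edgeR FDR 6.73e-07). The ratio of *Id2* to *Id3* per exon length was 1.15 and 1.13 in WT and 0.641 and 0.401 in KO at day 0, and 5.14 and 4.35 in WT and 6.89 and 4.66 in KO at day 5. *Id3* was therefore the more abundant of the pair in the KO libraries at day 0 and in no other group.

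**Figure D3:**
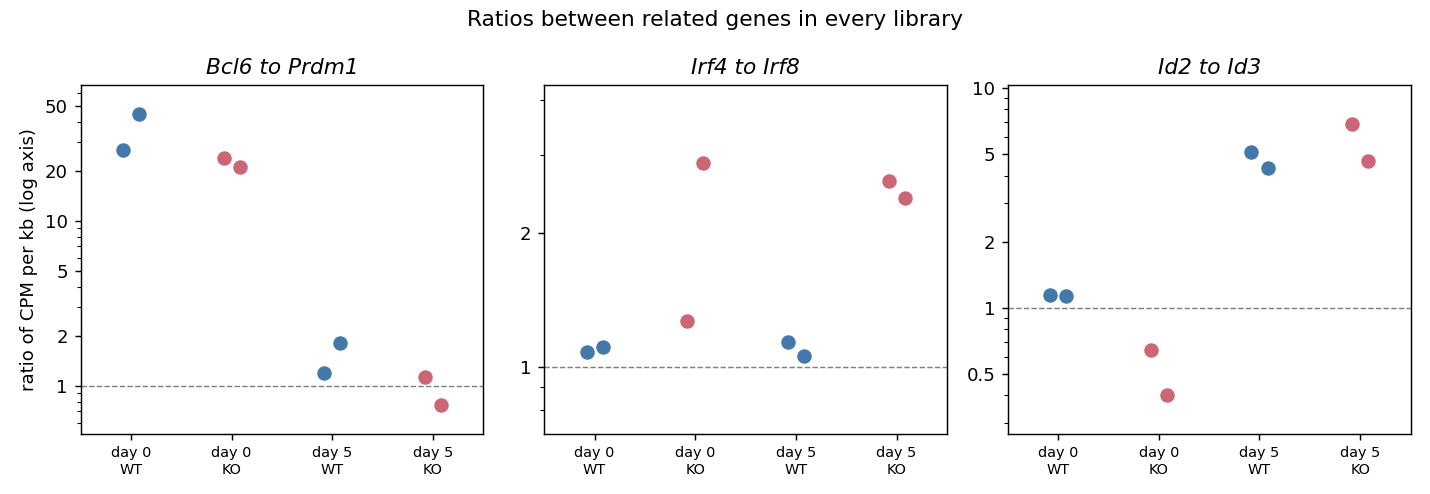
Ratio of CPM per kb of exon (log axis) between 3 pairs of genes in each of the 8 libraries; the dashed line is a ratio of 1. *Bcl6* to *Prdm1* drops from above 21 at day 0 to below 2 at day 5, *Irf4* to *Irf8* is 1.06 and 1.14 in WT and 2.4 and 2.63 in KO at day 5, and *Id2* to *Id3* is below 1 in the KO libraries at day 0 alone.

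*Zeb2*, which encodes a zinc-finger repressor that supports terminal effector cells and lies on chromosome 2 (44983632 to 45117395), was at the edge of detection. It had 8 and 4 counts in WT and 3 and 5 counts in KO at day 0, and 7 and 2 counts in WT and 3 and 8 counts in KO at day 5. The highest level was 1.51 CPM and the groups overlapped in each comparison of 2 days. Its count ratio of day 5 to day 0 was 0.765 in WT (95% exact counting interval 0.285 to 1.98) and 2.19 in KO (0.804 to 6.28), so a change was not detectable at this depth. These intervals cover counting error only.

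The genotype comparison set libraries labelled KO against WT at each day. *Satb1* itself was not lower in KO at day 0, so the day 0 values compare the labels and not cells shown to lack *Satb1*. At day 0 none of the 9 tested members was called by edgeR, beside 1.8% of all tested genes, and DESeq2 called none. At an unadjusted p under 0.05 there was 1 member, beside 13.8% of all genes. The libraries did not overlap for 5 members, with *Tbx21*, *Irf4* and *Tox* higher and *Id2* and *Bcl6* lower in KO, and such separation was found for 43.4% of all tested genes.

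*Id2* had the smallest day 0 p, with a log2 fold change of -0.51 (95% interval -1.0 to -0.01, edgeR FDR 0.348). *Bcl6* had -0.34 (95% interval -0.74 to 0.06, edgeR FDR 0.456) and *Tox* had 0.32 (-0.06 to 0.70, edgeR FDR 0.464). The interval of *Irf4* was wide, at 1.03 (-0.04 to 2.1), and its value was 0.26 without WT replicate 1 and 2.29 without WT replicate 2. *Batf* was the most closely bounded, at 0.12 (-0.22 to 0.46). *Tbx21* had 3 counts over both WT libraries and 13 over both KO libraries, a ratio of 2.54 with an exact counting interval of 0.697 to 13.9.

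At day 5 again none of the 9 was called by edgeR, beside 1.63% of all tested genes. At an unadjusted p under 0.05 there were 3, *Batf*, *Tox* and *Irf4*, beside 14.1% of all genes, and DESeq2 called *Batf*. The libraries did not overlap for 6 members, with *Prdm1*, *Irf4*, *Batf* and *Tox* higher and *Eomes* and *Irf8* lower in KO, beside 45.6% of all genes.

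*Batf* came closest to the threshold at day 5, with a log2 fold change of 0.60 (SE 0.15, 95% interval 0.27 to 0.94, edgeR FDR 0.0745), and DESeq2 gave 0.61 (FDR 0.0257). With the GC and length offset *Batf* had 0.51 (edgeR FDR 0.198), and with a day 5 library left out its value ran from 0.49 to 0.71. *Tox* had 0.56 (95% interval 0.16 to 0.96, edgeR FDR 0.167), and passed without the filter on low counts (0.57, edgeR FDR 0.0497) and without WT replicate 2 at day 5 (0.89, edgeR FDR 0.0382), whereas without WT replicate 1 at day 5 it was 0.28 (edgeR FDR 0.451). *Irf4* had 0.58 (0.01 to 1.15, edgeR FDR 0.347) and *Irf8* had -0.60 (-1.26 to 0.06, edgeR FDR 0.411). *Prdm1* had 0.75 (-0.24 to 1.74) and *Eomes* -0.36 (-0.87 to 0.14). The intervals of *Id2*, at 0.11 (-0.38 to 0.59), *Bcl6*, at 0.14 (-0.45 to 0.73), and *Tbx21*, at 0.19 (-0.92 to 1.29), spanned 0.

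The IRF pair differed in direction at day 5. Per exon length the ratio of *Irf4* to *Irf8* was 1.14 and 1.06 in WT and 2.63 and 2.4 in KO, and at day 0 it was 1.08 and 1.11 in WT and 1.27 and 2.88 in KO, the last from 16 and 8 counts. The log2 fold change of *Irf4* minus that of *Irf8* at day 5 was 1.18, and it lay between 1.11 and 1.45 over all alternatives. This contrast of 2 genes was chosen after its values were seen and is given without a test.

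**Figure D4:**
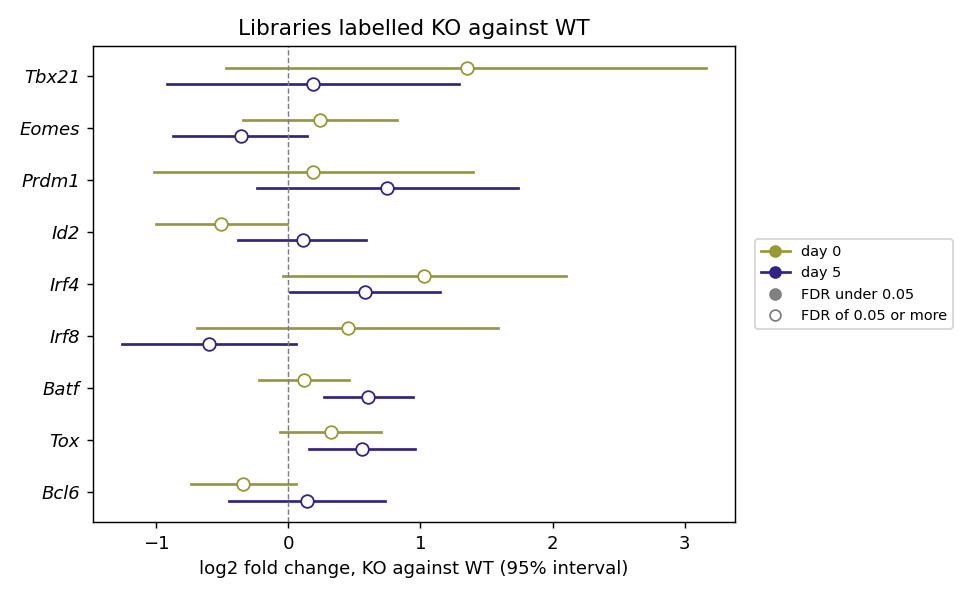
Log2 fold change of libraries labelled KO against WT with its 95% interval for the 9 tested genes at day 0 and day 5; open points have FDR of 0.05 or more. No point is filled, and the intervals that leave out 0 are *Id2* at day 0 and *Irf4*, *Batf* and *Tox* at day 5.

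The genotype by day interaction, the difference between the genotypes in the change with culture, called no member in edgeR or DESeq2, beside 0.159% of all tested genes. At an unadjusted p under 0.05 there was 1, *Batf*, with 0.49 (95% interval 0.01 to 0.96, edgeR FDR 0.391), beside 12.4% of all genes. *Irf8* had -1.05 (-2.36 to 0.26), *Id2* 0.61 (-0.08 to 1.30) and *Eomes* -0.60 (-1.38 to 0.17). The comparisons share libraries, since the WT day 0 group enters both the day 0 genotype comparison and the WT culture comparison.

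The order of the levels changed with culture. Per kb of exon at day 0 in WT it ran *Id2* 83.1, *Batf* 41.3, *Tox* 29.7, *Bcl6* 7.04 and *Eomes* 2.92 CPM, with the remaining 5 below 0.3 CPM. Among these, *Irf4* (0.285), *Irf8* (0.259) and *Prdm1* (0.209) overlapped. *Tbx21* (0.117) was below *Prdm1* but within the range of the *Irf4* and *Irf8* libraries, and *Zeb2* (0.0586) was the lowest by its mean. At day 5 in WT the order was *Id2* 191, *Batf* 65.4, *Eomes* 12.1, *Tox* 11, *Irf4* 5.8, *Irf8* 5.23, *Tbx21* 1.18, *Bcl6* 0.738, *Prdm1* 0.5 and *Zeb2* 0.043 CPM per kb, with overlap between *Eomes* and *Tox* and between *Irf4* and *Irf8*.

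In the libraries labelled KO the day 5 order differed in the middle. *Tox* (16.1 CPM per kb) was above *Eomes* (9.4), whose libraries overlapped those of *Irf4* (8.71), and *Irf8* (3.46) was below both. *Prdm1* (0.853) and *Bcl6* (0.806) overlapped. *Id2* was above 97.3% of tested genes per exon length in WT at day 5, *Irf4* was above 7.45% at day 0 and 54.1% at day 5 in WT, and *Bcl6* went from above 59.1% to above 14.3%.

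**Figure D5:**
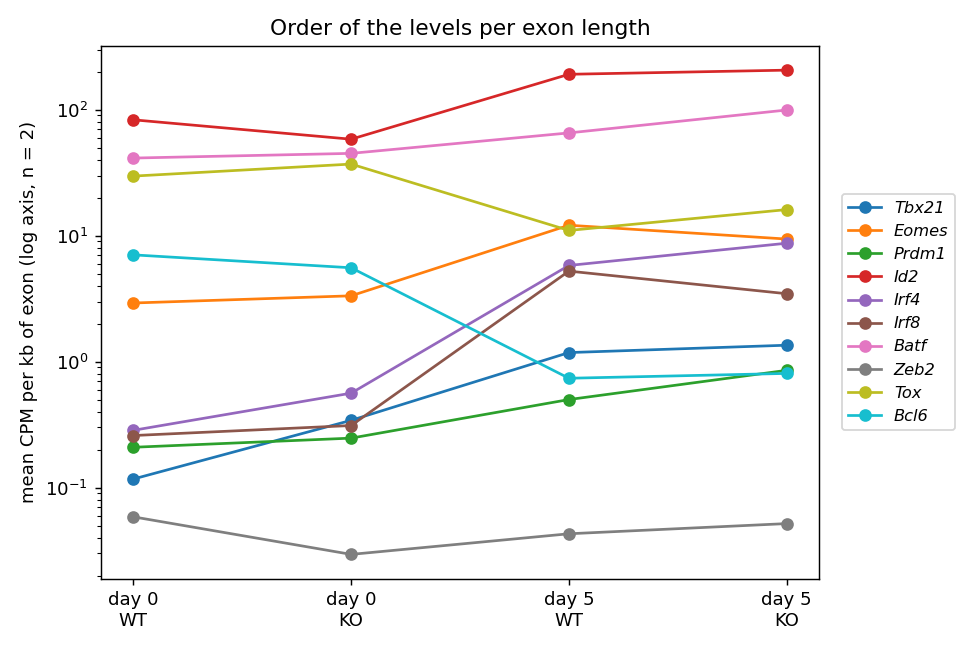
Mean CPM per kb of exon (log axis, 2 libraries per group) for the 10 genes in the 4 groups; lines join the means of a gene. The day 0 order is led by *Id2*, *Batf* and *Tox*, and by day 5 *Eomes*, *Irf4* and *Irf8* have passed *Bcl6*, which drops from 7.04 to 0.738 in WT.

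Most tested targets of the T-box factors rose in culture. Of 9 listed targets 6 were tested, and in WT 5 were higher and 1 lower at day 5, with a median log2 fold change of 3.01, beside 24.7% of all tested genes called higher and 23.6% lower. In KO 5 were higher and none lower, with a median of 1.71, beside 26.2% and 24% of all genes. *Ifng* is included in these counts and passed the filter only with day 5. *Gzmb*, which encodes granzyme B, went from 3.53 ± 0.441 CPM (SD, n = 2) to 4618 ± 267 CPM in WT and from 1.73 ± 0.106 to 4264 ± 479 CPM in KO. *Prf1*, the perforin gene, was the exception, and fell by 1.10 on the log2 scale in WT (edgeR FDR 0.000326). *Klrg1*, *Cx3cr1* and *S1pr5*, markers of terminal effector cells, had at most 4 counts in any library.

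Between genotypes, *Il2rb*, the shared receptor chain for IL-2 and IL-15, was higher in KO at both days, from 98.8 ± 5.71 to 211 ± 23.8 CPM at day 0 (log2 fold change 1.10, edgeR FDR 0.00116) and from 291 ± 31.4 to 509 ± 26.1 CPM at day 5 (0.81, edgeR FDR 0.00989). The chemokine gene *Ccl5* was higher in KO at day 0 (2.78, SE 0.41, edgeR FDR 0.004). At day 5 *Prf1* was higher (0.81, edgeR FDR 0.0489), and *Ifng* was lower in KO, with 91 and 33 counts in WT against 17 and 11 in KO (log2 fold change -2.21, edgeR FDR 0.0429). In all, 2 of 6 were higher at day 0, and 2 were higher and 1 lower at day 5, where the median was 0.35. Over all tested genes 1.8% were called at day 0 and 1.63% at day 5.

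Genes that go with *Tox* in exhausted cells were mostly low before culture. Of 8 listed, 7 were tested, and 4 of these, *Havcr2*, *Tigit*, *Cd244* and *Entpd1*, passed the filter only with day 5, so that they could hardly fall. At day 5 in WT 5 were higher, those 4 and *Cd160*, and 1, *Cd101*, was lower (-0.79, edgeR FDR 0.0181). In KO 6 were higher, those 4 with *Pdcd1* and *Cd160*, and none lower, beside 24.7% of all tested genes called higher in WT and 26.2% in KO. *Entpd1*, which encodes CD39, went from 2.18 ± 1.48 to 128 ± 21.5 CPM in WT and from 0.863 ± 0.856 to 135 ± 0.675 CPM in KO. *Tigit* went from 1.62 ± 0.267 to 38.5 ± 5.1 CPM in WT (4.57, edgeR FDR 3.1e-07).

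At day 5, 3 of these 7 were higher in KO and none lower, beside 1.63% of all tested genes called. *Pdcd1*, which encodes PD-1, had 8.29 and 3.86 CPM in WT and 99.3 and 69.9 CPM in KO (log2 fold change 3.75, SE 0.34, edgeR FDR 0.000241). *Cd244* had 6.53 and 4.82 CPM against 55.6 and 59.1 CPM (3.31, SE 0.25, edgeR FDR 5.69e-05), and *Cd160* was higher by 0.92 (SE 0.16, edgeR FDR 0.0142). For both *Pdcd1* and *Cd244* the KO libraries were all far above the WT libraries, while *Tox* itself was not called. At day 0 none of the 7 was called by edgeR. The median over the list was 0.92 at day 5, beside 0.00 over all tested genes, and -0.28 at day 0 without *Havcr2*, which had 3 counts or fewer in each day 0 library.

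Genes that Blimp-1 is known to lower mostly fell in culture. Of 10 listed, 9 were tested, and 6 fell and 2 rose in each genotype, with medians of -0.86 in WT and -1.66 in KO. Over all tested genes 23.6% fell and 24.7% rose in WT, and 24% fell and 26.2% rose in KO. *Bcl6*, *Id3*, *Tcf7*, *Ccr7* and *S1pr1* were among those that fell, the last 3 being genes of quiescence and of traffic through lymphoid organs. *Tcf7*, which encodes TCF-1, fell by 2.44 on the log2 scale in WT (SE 0.12, edgeR FDR 6.6e-09) and by 2.14 in KO (SE 0.12, edgeR FDR 1.66e-08). *Myc* rose in both, by 1.82 and 2.15 (edgeR FDR 6.41e-06 and 1.34e-06). The other gene that rose was *Il2* in WT, from 1 and 2 counts to 10 and 6, and *Ciita* in KO, from 2 and 2 counts to 12 and 9, which passed the filter only with day 5.

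At day 0, *Id3* was higher in KO (0.63, edgeR FDR 0.0318), and *Il2* had 1 and 2 counts in WT and 68 and 50 counts in KO (edgeR FDR 0.00236). *Il2* was above the level of the low-count filter only in KO libraries, so a higher level in KO was favoured by the filter. Of the 9 tested, 2 were called higher at day 0 and 1 was called lower at day 5, beside 1.8% and 1.63% of all tested genes called. The median of the list was -0.07 at day 0 and 0.14 at day 5.

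Partners and relatives of the members moved in both directions. Of 23 listed genes 16 were tested, and in WT 1 rose and 3 fell with culture (25%, beside 48.3% of all tested genes), while in KO 4 rose and 6 fell (62.5%, beside 50.2%). The medians were 0.14 and 0.05. *Jun*, *Jund* and *Nr4a2* passed the filter only with day 5. *Bach2*, a repressor that competes with AP-1 factors, fell by 0.95 in WT and fell by 1.01 in KO (edgeR FDR 0.00176 and 0.00101). *Nfatc1* fell by 1.14 in WT and fell by 0.92 in KO (edgeR FDR 0.000161 and 0.000585), and *Nr4a2* rose from 0 and 4 counts to 17 and 9 in WT and from 3 and 5 to 11 and 15 in KO (edgeR FDR 0.0399 and 0.0449). In KO *Irf1* fell by 1.0 (edgeR FDR 0.00124), *Irf2* fell by 0.48 (edgeR FDR 0.0259) and the E protein gene *Tcf12* fell by 0.87 (edgeR FDR 0.000614). There *Nfatc2* rose by 0.65 (edgeR FDR 0.0349), *Batf2* by 1.31 (edgeR FDR 0.0315) and *Jun* from 3 and 7 to 23 and 12 counts (edgeR FDR 0.049). Between genotypes the 1 call among the 16 was *Id3* at day 0, which is also on the Blimp-1 list, and edgeR called none at day 5. Over all tested genes 1.8% were called at day 0 and 1.63% at day 5, and the list medians were 0.09 and -0.09.

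For each tested member the gene with the most similar pattern was sought among 10508 named genes, by the root mean square difference of log2 CPM over the 8 libraries after centring each gene on its mean. *Batf* had the closest neighbour, *Stxbp2*, at 0.08. Next came *Id2* with *Atp8a2* and *Tox* with *Zfp36* at 0.13 each, *Eomes* with *Atp10a* at 0.14, *Tbx21* with *Gbe1* and *Prdm1* with *Trp53i11* at 0.16 each, and *Bcl6* with *Sidt1* at 0.17. *Irf4* with *Gen1* at 0.26 and *Irf8* with *Fut7* at 0.29 had the most distant neighbours, and both had 34 counts or fewer in each day 0 library. *Tbx21* and *Prdm1*, whose neighbours were closer, had at most 7 and 15 counts there. The log2 CPM used a prior count of 2, which reduces differences at low counts. Among the members themselves *Prdm1* and *Batf* were the most alike, at 0.23.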

How the data were processed

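The authors deposited 1 table of raw counts by gene symbol per library, not normalized and not pooled. Per the labels, total RNA was extracted with Trizol and a Direct-zol kit and made into NEBNext Ultra libraries; the submitters' processing notes name HISAT2 2.1.0, HTSeq 0.11.1 and mm10. The annotation and strand setting are not given in the sources used here. Reads assigned to genes were 21.2% to 24.5% of the records, and lines that name no gene were left out.

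Differential expression was tested with edgeR 4.0.16 (R 4.3.3): a quasi-likelihood fit of all 8 libraries with a mean per group, TMM factors and the default low-count filter (minimum count 10), two-sided, Benjamini-Hochberg adjusted over 12597 genes. The biological coefficient of variation common to all genes was 15%. CPM used the TMM-scaled library size. Exon lengths, coordinates and GC content came from GENCODE M21 (46394 symbols matched). The script was tested on simulated data. All members, *Satb1*, and the called genes of 4 lists were named. Listed genes that are included in the counts but not named are not reported here. The members and lists were chosen with earlier results of these data known. Alternatives were other scalings, no filter, equal depth, a GC and length offset, a replicate block, DESeq2 1.42.0, fewer libraries and each library left out. CPM counting intervals cover counting error only.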

Additional observations from a re-analysis of the deposited data

How the results depend on the processing

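Of 754 recomputed member fold changes, 731 kept their direction and side of the threshold, 5 lost and 3 gained a call, and 15, none of them called, changed sign. The number of members called at day 5 between genotypes was 0 and became 1 without the low-count filter and 1 with DESeq2; leaving out each library in turn gave 0 to 1. The same left 0 at day 0, 7 to 8 in WT culture, 8 to 9 in KO culture and 0 for the interaction. Changes of sign at equal depth or with the GC and length offset were *Tbx21* at day 5 (-0.03 and -0.02) and *Bcl6* at day 5 (-0.03, offset). With a library left out, the day 0 log2 fold change ran from -0.15 to 0.60 for *Eomes*, -0.08 to 0.58 for *Prdm1*, -0.31 to 1.70 for *Irf8* and -0.03 to 0.29 for *Batf*. At day 5 it ran from 0.00 to 0.36 for *Tbx21*, -0.23 to 0.38 for *Id2* and -0.11 to 0.35 for *Bcl6*, and the interaction from -1.72 to 0.32 for *Irf4* and -0.04 to 0.55 for *Tox*. The causes were not tested. The all-gene numbers called between genotypes were less stable. At day 5 the 205 genes called became 103 with the GC and length offset and 338 of 8292 with DESeq2. For the interaction 20 became 11 with the offset and 140 of 6986 with DESeq2. These numbers also moved when a library was left out, so the shares over all genes are approximate. Scaling by library totals moved the all-gene median change (log2) to -0.17 in WT culture and -0.23 in KO culture, where 2755 genes were then higher and 3936 lower in place of 3296 and 3029, and no member changed direction. Replicate numbers are shared between groups, but same-numbered libraries deviated together weakly (Pearson r 0.118 between days in WT, 0.228 in KO and -0.0742 to 0.00438 across genotypes), so the numbers were not taken as pairs; with the replicate block the members called stayed at 0, 0, 8, 9 and 0.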

Other observations

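Several relatives of the members were too scarce to test. *Batf3*, a dimer partner of JUN known from dendritic cells and also found in activated T cells, had no count in the 4 day 0 libraries, and 9 and 5 counts in WT and 4 and 14 counts in KO at day 5. *Zfp683*, which encodes the Blimp-1 relative HOBIT, had 3 and 0 counts in WT and 7 and 7 counts in KO at day 0, and 10 and 7 counts in WT and 8 and 11 counts in KO at day 5. *Tox2* had at most 3 counts and *Spi1* at most 2 counts in any library. *Lag3*, an inhibitory receptor gene, had 0 and 0 counts in WT and 1 and 1 in KO at day 0, and 5 and 9 in WT and 3 and 5 in KO at day 5.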
